A study of Mus musculus with 3 samples.

Results

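Antisense long noncoding RNA genes are transcribed from the DNA strand opposite to another gene, most often a protein-coding one. In the tables of brain, liver and testis, 1437 of 36809 genes (3.90%) belonged to this class. They were chosen by annotation alone: the gene identifier carries the biotype antisense in GENCODE release M21, and the locus spans at least 200 bp. The rule left out 1 imprinted antisense gene and 1 gene that was too short. Just inside the span minimum lay Gm16833 with 201 bp, and just outside it Npn2 with 75 bp, both listed at 0 in all 3 libraries.

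Each tissue was represented by 1 library of polyadenylated RNA from male C57BL/6 mice aged 11 weeks, an inbred wild-type strain. No treatment or allele is given in the labels, which also do not say how many mice gave RNA to a library. The libraries kept the strand of the RNA and were sequenced for 76 cycles from a single end in 3 lanes each. Values are FPKM, the number of fragments divided by transcript length in kilobases and by library size in M, each with a lower and an upper bound from the authors. With 1 library per tissue there was no replicate check and no test, so differences between tissues are described by their size and by whether the authors' intervals overlap. In whole-organ RNA, fewer cells of a type and less RNA per cell cannot be told apart.

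An antisense transcript can act on its neighbour in several known ways. It can pair with the sense RNA, its transcription can run into the promoter of the sense gene, or it can bring chromatin factors to the locus; for most annotated antisense genes no role is known. Many start at the promoter of a coding gene and run the other way, since many mammalian promoters fire in both directions. The testis is known for a broad transcriptome, in which meiotic and early postmeiotic germ cells transcribe many genes and noncoding loci that are silent elsewhere.

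The members spanned a median of 5442 bp (quartiles 2052 and 13806 bp, range 201 to 298761 bp). A coding gene overlapped the locus of 1222 members (85.0%), and for 751 the overlap covered the whole member. Those 1222 pairs held 1083 different coding genes, and 251 members shared theirs with another member. By the M21 gene models, 1198 partners lay on the opposite strand and 717 pairs shared exonic bases. Of the pairs, 737 had the member inside the partner's locus, 239 overlapped head to head at their starts, 186 overlapped tail to tail at their ends and 36 members spanned their partner. A further measure, chosen after values had been seen, counted 479 members (33.3%) whose start lay within 1000 bp of the start of a coding gene on the opposite strand, referred to here as divergent neighbours. The measure uses distance alone and does not require the genes to run apart. It therefore includes members inside the coding gene, such as 4930442L01Rik in Pdzk1 and Gm15743 in Bdh1, and does not identify shared promoters.

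CG dinucleotides around the start were more frequent in members detected in every tissue than in members restricted to testis. RefSeq start windows (GRCm38.p6, 250 bases before and 50 after the start) matched 594 members, and 411 of these lay within 100 bp of an M21 start. The 4 windows below, free of annotated untranslated regions, are shown 5′ to 3′ because they come from a member expressed in all 3 tissues, one of testis, one of brain and one of liver. Capitals mark CG dinucleotides, the sites of DNA methylation, which are dense in promoters of broadly expressed genes.
Tug1, chr11:3648765-3649064 (- strand): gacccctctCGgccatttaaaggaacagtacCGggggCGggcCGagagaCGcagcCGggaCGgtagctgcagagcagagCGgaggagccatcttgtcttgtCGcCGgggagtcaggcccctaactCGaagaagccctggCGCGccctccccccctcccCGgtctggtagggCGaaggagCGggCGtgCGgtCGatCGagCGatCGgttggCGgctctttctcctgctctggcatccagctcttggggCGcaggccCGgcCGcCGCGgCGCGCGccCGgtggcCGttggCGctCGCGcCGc
4930403D09Rik, chr11:34299492-34299791 (+ strand): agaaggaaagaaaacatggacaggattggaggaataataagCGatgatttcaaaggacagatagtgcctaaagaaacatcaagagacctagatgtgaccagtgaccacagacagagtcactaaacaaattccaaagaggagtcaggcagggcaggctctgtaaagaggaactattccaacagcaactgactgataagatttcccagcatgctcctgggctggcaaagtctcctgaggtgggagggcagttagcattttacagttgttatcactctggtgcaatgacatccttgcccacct
Pcsk2os1, chr2:143547788-143548087 (- strand): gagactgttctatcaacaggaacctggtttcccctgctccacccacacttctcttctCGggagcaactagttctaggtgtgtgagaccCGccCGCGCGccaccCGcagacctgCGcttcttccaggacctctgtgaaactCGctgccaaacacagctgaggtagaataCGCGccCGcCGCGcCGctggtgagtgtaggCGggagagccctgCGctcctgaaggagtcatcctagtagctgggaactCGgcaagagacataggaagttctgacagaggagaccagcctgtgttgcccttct
Gm12909, chr4:62088033-62088332 (+ strand): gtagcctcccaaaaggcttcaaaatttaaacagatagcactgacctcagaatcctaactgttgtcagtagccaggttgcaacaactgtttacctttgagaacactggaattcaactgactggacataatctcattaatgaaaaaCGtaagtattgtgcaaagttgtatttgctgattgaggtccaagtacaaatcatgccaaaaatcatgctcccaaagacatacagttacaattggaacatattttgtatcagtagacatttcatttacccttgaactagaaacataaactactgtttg

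The Tug1 window held 37 CG dinucleotides, that of Pcsk2os1 17, and those of 4930403D09Rik and Gm12909 1 each. Over the 10 members with a window and at least 1 FPKM in all 3 tissues the median was 35, and over the 40 members at that level in brain it was 22. Over the 25 at that level in liver it was 11, well above the count of Gm12909. The 66 members restricted to testis had a median of 5, close to the 6 over all 411 members with a window. Members under 0.1 FPKM in all libraries had 4, members at 10 FPKM or more in testis 6, and all 32544 RefSeq windows 7. Restricted here means at least 5 FPKM in 1 tissue and under 0.5 FPKM in both others.

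The cAMP response element (CRE), TGACGTCA, is bound by the CREB and CREM factors, and CREM is a known regulator of genes in round spermatids. Searched on both strands, this palindrome lay in the windows of 4 of the 66 testis-restricted members (6.06%, exact 95% interval 1.68 to 14.8%), in 3 of 345 other members and in 1.80% of all windows. The 4 stretches are printed 5′ to 3′ on GRCm38.p6 with the element in capitals, because they show which members carry it and in what context.
Gm15756, chr6:90599991-90600018 (- strand): acatcagttgTGACGTCAtaggtggtag
Sox5os3, chr6:144672808-144672835 (+ strand): ggctggggtaTGACGTCAgcaggggctg
1700045H11Rik, chr4:150855009-150855036 (- strand): agcgacaacgTGACGTCAacgcccgcag
Gm16555, chr17:49821869-49821896 (- strand): ttgtctgtcaTGACGTCAtagaaagaaa

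The element began 68 bases before the RefSeq start in Gm15756, 50 in Sox5os3, 77 in 1700045H11Rik and 81 in Gm16555. Listed testis levels of these 4 were 193, 22.3, 15.5 and 6.31 FPKM. In brain and liver their highest level was 0.102 FPKM, in the brain value of Gm15756. Sox5os3 and Gm16555 were singled out after their values were seen. Among other motifs searched on both strands, AACNGNC, a core of sites for the meiotic factor A-MYB, lay in 47.0% of the testis-restricted windows, 31.0% of the other members' windows and 32.8% of all windows. The variant AACNGTT lay in 9.09%, 4.64% and 4.44%. TATAAA lay in 9.09%, 8.99% and 13.6%, GTTGCC in 13.6%, 17.1% and 12.4%, and the shorter TGACG, which every CRE contains, in 19.7%, 23.2% and 20.9%. The share with AACNGNC was not particular to testis restriction. It was 40% over the 40 members at 1 FPKM or more in brain and 48% over the 25 at that level in liver. Over the 117 members under 0.1 FPKM in all libraries it was 26.5%. A match is a description of letters in a window and no evidence of binding.

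Most antisense genes were at very low levels, and those above them were mostly in testis. At 1 FPKM or more, 379 members were detected in testis (26.4%, exact 95% interval 24.1 to 28.7%), 76 in brain (5.29%, 4.19 to 6.58%) and 45 in liver (3.13%, 2.29 to 4.17%). These intervals cover counting error only. Long intergenic noncoding RNA genes (lincRNA genes, 1030 in the tables) gave similar shares, 25.1% for testis, 7.09% for brain and 2.43% for liver. The shares of protein-coding genes were 58.0%, 58.5% and 43.9%, with brain and testis close together. The tables give no counts, and precision was read from the bounds: the distance from the value to the upper bound was a median 15.5% of the value for detected members in testis, 25.1% in brain and 17.5% in liver.

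**Figure D1:**
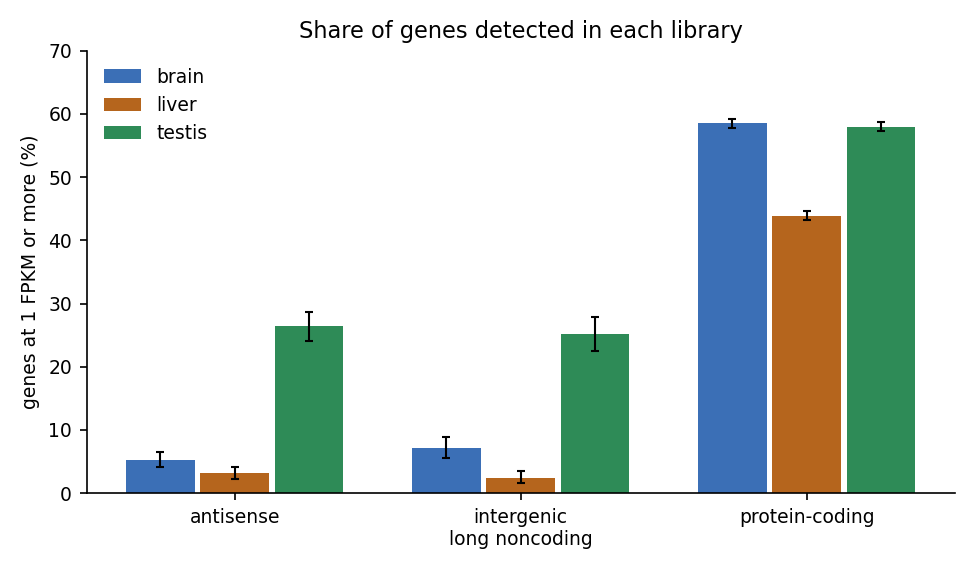
Share of antisense, lincRNA and protein-coding genes at 1 FPKM or more in each library, in percent of the class, with exact 95% binomial intervals as bars. Antisense and lincRNA genes stand at about the same height in each tissue and are highest in testis (26.4% and 25.1%), whereas protein-coding genes are as frequent in brain as in testis.

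At 1 FPKM or more in at least 1 library were 433 members, of which 368 had their highest level in testis, 38 in brain and 27 in liver. Detection was in testis alone for 330, in brain alone for 30, in liver alone for 21 and in all 3 libraries for 15. Brain and testis shared a further 28, liver and testis 6, and brain and liver 3. By contrast, 315 members were listed at 0 in all 3 libraries, and for 624 the highest of the 3 values was under 0.1 FPKM. At 10 FPKM or more there were 131 members in testis, 5 in brain and 5 in liver, and 11 members exceeded 100 FPKM, all in testis. Summed over members, FPKM was 7082 in testis, 394 in brain and 257 in liver, which equalled 1.25%, 0.114% and 0.0419% of the coding sum of the same library. The 10 highest members held 35.4% of the antisense sum in testis, 33.1% in brain and 51.04% in liver.

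A gene was called higher in a tissue when its values lay 4-fold or more apart on log2(FPKM + 1) and the authors' intervals did not overlap. This scale understates the difference of low genes. Against brain, 214 members (14.9%) were higher in testis, where 11% of all genes tested were called that way. Only 8 (0.557%) were lower, against 7.19% of all genes. Against liver, 230 members (16.0%) were higher in testis, close to the 15.2% of all genes, and 8 were lower, where all genes gave 3.82%. Between brain and liver, 15 members (1.04%) were higher in brain and 9 (0.626%) higher in liver, with 9.15% and 2.79% over all genes. Over all members, most of them near 0, the share higher in testis was thus near the background, and the lower side was sparse. Coding genes gave 2861 higher and 2094 lower in testis against brain. Only 76 members reached 1 FPKM in brain and 45 in liver, which limits how many could be called lower. At 1 FPKM or more in either tissue were 412 members for testis and brain and 403 for testis and liver. Their median log2 differences were 2.17 and 2.39, against 0.11 and 1.18 over all genes at that level.

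Higher calls made up 96.4% of the members called between testis and brain and 96.6% of those between testis and liver. Over all genes, 60.5% and 79.9% of the calls were higher in testis as deposited. Scaling was to the coding sum, by the median ratio or by the sum of all features. In that order, the members' shares became 95.05%, 96.1% and 100% against brain, and 96.8%, 94.9% and 94.7% against liver. For brain against liver the share of called members higher in brain was 62.5% as deposited, below the 76.6% over all genes. Under the same scalings the members' share was 79.4%, 54.2% and 0%, so that direction depends on the scaling. The scalings moved the median log2 difference of all features by -0.49, 0.01 and 1.90 for testis against brain, by 0.02, -0.46 and -0.29 for testis against liver, and by 0.62, -0.44 and -1.66 for brain against liver.

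**Figure D2:**
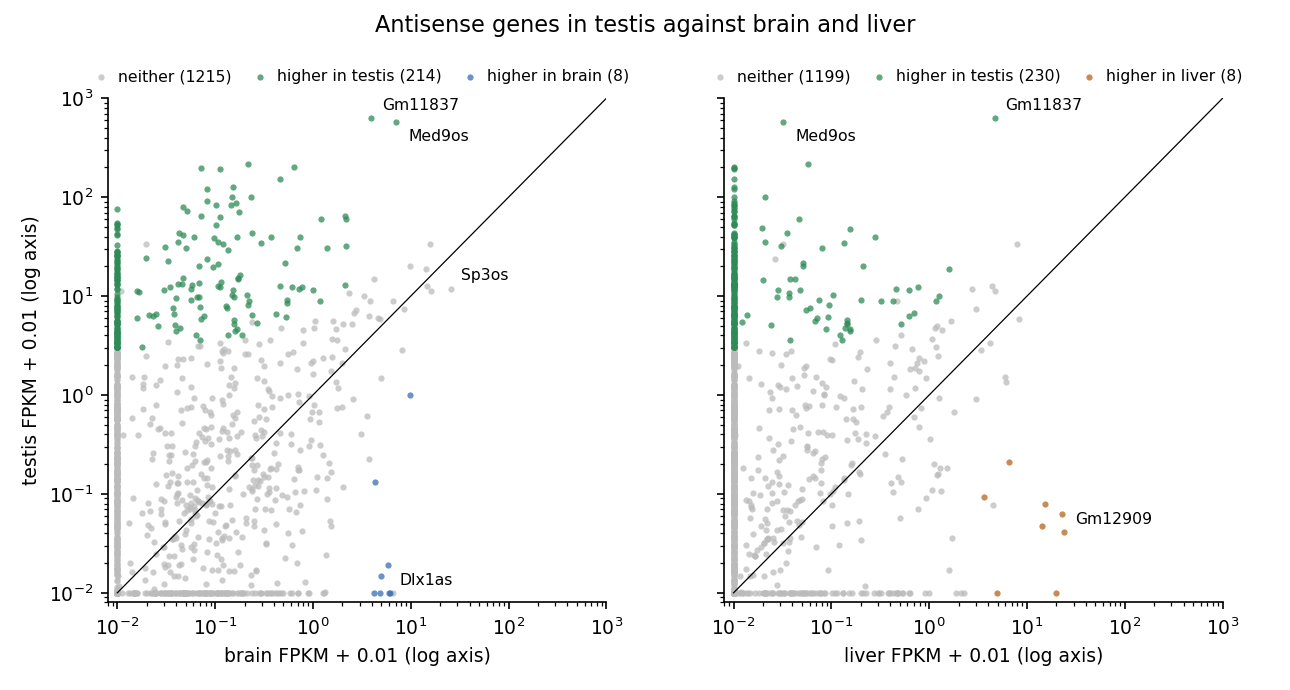
Testis FPKM (vertical) against brain or liver FPKM (horizontal) for the 1437 antisense genes, both on log axes with 0.01 added so that genes listed at 0 lie on the edge. Coloured points are called between the 2 tissues (214 higher in testis and 8 higher in brain on the left, 230 and 8 on the right), and most of them lie far above the diagonal.

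Testis restriction was common among the members that reached the level at which it can be scored. Of 201 members at 5 FPKM or more in testis, 160 (79.6%, exact 95% interval 73.4 to 84.9%) were under 0.5 FPKM in both other tissues. The same held for 81.1% of lincRNA genes and 16.2% of coding genes at that level. In brain 4 of 15 members (26.7%, 7.79 to 55.1%) and in liver 5 of 10 (50%, 18.7 to 81.3%) were restricted. Among lincRNA genes these shares were 28.6% in brain and 8.33% in liver, and among coding genes 7.87% and 6.24%. Among all genes at 5 FPKM or more they were 19.7% in testis, 8.89% in brain and 5.79% in liver. Names of RIKEN clones that begin with 1700 or 49 come in large part from testis clone libraries and are therefore not independent of testis expression: 79.0% of these 119 genes were detected in testis. Of 918 members with a Gm name 17.4% were detected there, of 249 with a name ending in os, as or ot 35.7%, and of 120 other RIKEN genes 20%.

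The most abundant antisense gene was Gm11837 (ENSMUSG00000086587, mm9 chr4:14857055-14880177, + strand). Brain had 3.94 FPKM of it, liver 4.65 and testis 626 (interval 619 to 634). Testis stood far above both other libraries, by 6.99 against brain and 6.79 against liver on log2(FPKM + 1). The locus overlaps the end of Necab1, which codes for a neuronal calcium-binding protein, and the pair shares 410 exonic bases by the M21 models. Necab1 itself had 16.5 FPKM in brain, 7.64 in liver and just 0.0675 FPKM in the testis library. Thus the gene highest in testis overlapped one lowest there.

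Med9os (ENSMUSG00000085260, mm9 chr11:59760391-59761644, - strand) had 6.99 FPKM in brain, 0.0221 FPKM in liver and 576 FPKM in testis. No coding locus overlaps it, and it starts 64 bp from Med9, a subunit of the Mediator complex that links transcription factors to RNA polymerase II. Med9 had 12.0 FPKM in brain, 1.33 FPKM in liver and 28.3 FPKM in testis. Both genes of this divergent pair were highest in testis and lowest in liver, and in testis the antisense gene was far above its coding neighbour.

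Wbscr25 (ENSMUSG00000054909, mm9 chr5:135463303-135477220, - strand) reached 215 FPKM in testis, with 0.207 in brain and 0.0474 in liver. Its end meets the tight-junction gene Cldn3, which was at 12.1 FPKM in liver and 1.54 in testis. The next gene, 1700019G24Rik (mm9 chr6:5913909-5927393, - strand), lies inside Dync1i1, a subunit of the dynein motor that carries cargo along microtubules. The antisense gene was at 0.624 FPKM in brain, listed at 0 in liver and at 203 in testis. Dync1i1 had 32.7 FPKM in brain, 0.00508 in liver and, for testis, 2.68, so the pair took opposite orders in brain and testis.

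4930403D09Rik, whose start window is printed above, lies inside Dock2 (mm9 chr11:34199707-34208113, + strand), a regulator of leukocyte migration. It was at 0.0616 FPKM in brain, listed at 0 in liver and at 197 in testis. Dock2 stayed under 1 FPKM in every library, with 0.998 in testis. Here an antisense transcript was abundant in the tissue where the gene around it was barely detectable.

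Gm15756 (mm9 chr6:90546679-90549942, - strand) lies wholly inside Aldh1l1, an enzyme of folate metabolism in hepatocytes and astrocytes, and carries one of the CRE matches above. It was at 0.102 FPKM in brain, listed at 0 in liver and at 193 in testis (interval 188 to 197). Aldh1l1 was at 13.0, 222 and 4.70 FPKM in the same order. The 2 genes share 499 exonic bases, yet the tissue with the most Aldh1l1 RNA was the one in which Gm15756 was listed at 0.

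1700007P06Rik and Kcnmb4os1 were instead high where their coding genes were also present. 1700007P06Rik had 0.447 FPKM in brain, 0 FPKM in liver and 151 FPKM in testis, inside Spata17, a spermatogenesis gene with 67.2 FPKM in testis and under 1 elsewhere. Kcnmb4os1 was at 119.9 FPKM in testis inside Kcnmb4, a subunit of calcium-activated potassium channels with 67.5 FPKM in testis. The brain values of this pair were marked as low-data estimates, and the 53.5 FPKM listed for Kcnmb4 in brain lies above its own upper bound of 36.1. By the M21 models Kcnmb4os1 shares 355 exonic bases with Kcnmb4, and 1700007P06Rik shares 0 with Spata17. The other members above 100 FPKM in testis were 4921509A06Rik with 126, Gm13267 with 100.9 and Gm16226 with 100.4, and the highest value of these 3 in brain or liver was 0.220.

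**Figure D3:**
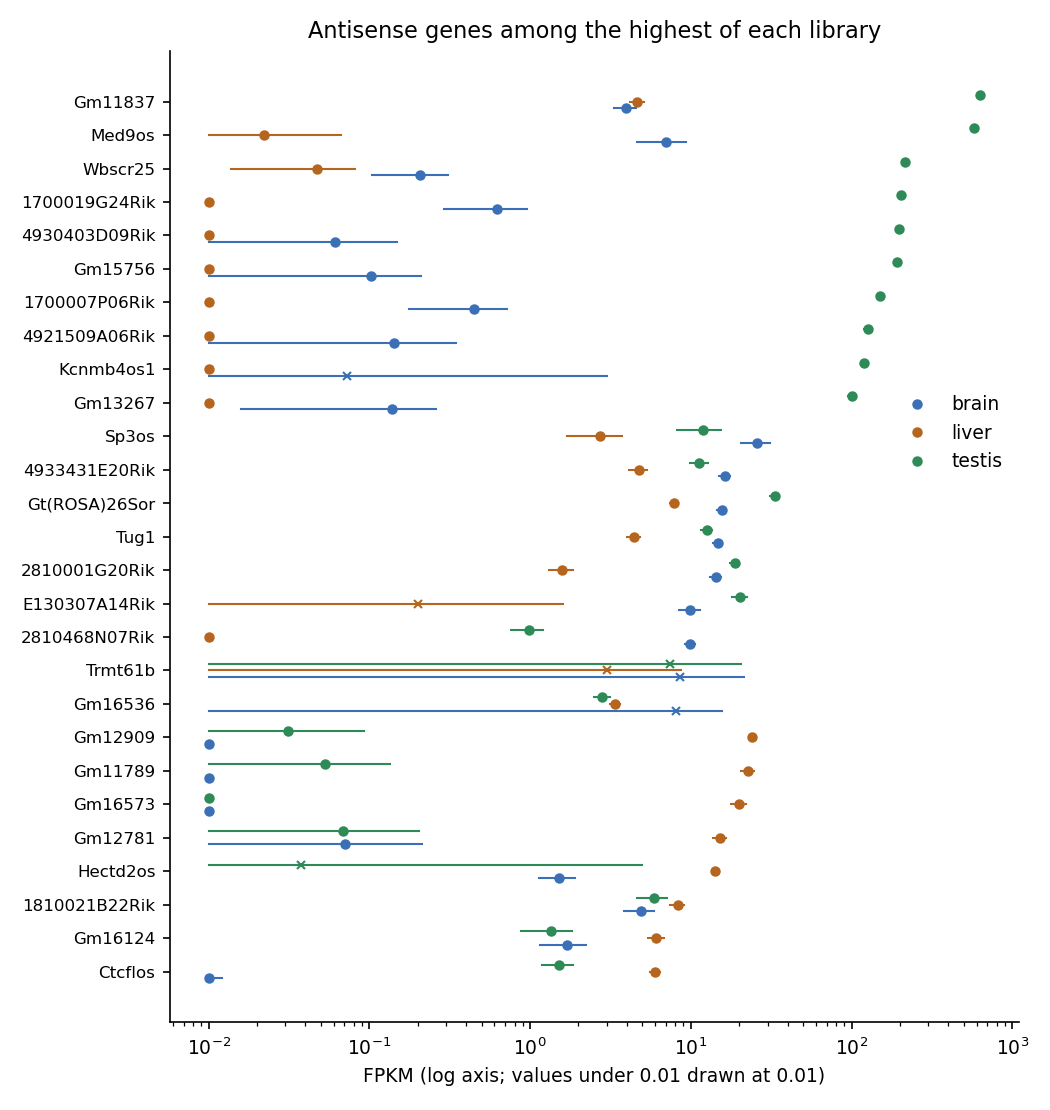
FPKM of named antisense genes in brain, liver and testis on a log axis, with the authors' intervals as lines and crosses for estimates not marked OK. Gm11837 and Med9os reach 626 and 576 FPKM in testis, while the genes led by brain or liver stay under 30.

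Antisense genes of brain were fewer and lower. The highest was Sp3os (mm9 chr2:72817481-72826734, + strand), which starts 138 bp from the transcription factor gene Sp3, with 25.8 FPKM in brain, 2.71 FPKM in liver and 11.9 FPKM in testis. Next came 4933431E20Rik with 16.3, 4.74 and 11.3, Gt(ROSA)26Sor with 15.6, 7.88 and 33.4, and Tug1 with 14.8, 4.42 and 12.6. Gt(ROSA)26Sor is the locus into which transgenes are often placed because it is active in nearly all cells, and Tug1 is a conserved noncoding RNA first studied in the retina. None of these 4 was called between brain and testis, and their order among the 3 tissues differed: Gt(ROSA)26Sor was highest in testis, the others in brain. The brain values listed for Trmt61b, Gm16536 and Gm13601 were failed estimates and are not read here.

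Among the brain-led members, A830082K12Rik (mm9 chr13:78337278-78375825, + strand) was at 6.20 FPKM in brain, 0.215 FPKM in liver and 0 FPKM in testis. It overlaps the start of Nr2f1, a nuclear receptor that patterns the cortex, at 27.4, 0.247 and 0 FPKM. Both genes of this pair were thus led by brain in the same order, and they share 123 exonic bases by the M21 models. Dlx1as (mm9 chr2:71354511-71375962, - strand), named for the interneuron regulator Dlx1, was at 5.99 FPKM in brain and listed at 0 in liver and testis.

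Pcsk2os1 was at 4.93 FPKM in brain, 0.00153 FPKM in liver and 0.00487 FPKM in testis, beside Pcsk2, a protease that processes neuropeptides and had 36.2 FPKM in brain and 0.605 in testis. Gm9962 was at 4.88 FPKM in brain and 0 elsewhere, next to the GABA receptor gene Gabra5 with 13.3 FPKM in brain. A830036E02Rik followed with 5.83 FPKM in brain, and 2810468N07Rik was at 9.91 in brain against 0.981 in testis. Pcsk2os1 and Gm9962 were highest in the same tissue as Pcsk2 and Gabra5, at a lower level, and share 260 and 148 exonic bases with them. Gm9962 also starts 84 bp from Gabrg3, which at 1.86 FPKM in brain lay below it.

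In liver the 2 leading members were Gm12909 and Gm11789. Gm12909 (mm9 chr4:61749322-61751558, + strand) was listed at 0 in brain, at 24.1 FPKM in liver and at 0.0310 in testis. It starts 946 bp from Mup3, a major urinary protein gene with 5812 FPKM in liver. Genes of the Mup cluster are near-identical copies, so reads may be shared among them and this assignment is uncertain. Gm11789 (mm9 chr11:120388169-120393098, - strand) was at 0, 22.8 and 0.0531 FPKM and overlaps the start of Gcgr, the glucagon receptor, which had 36.1 FPKM in liver and under 0.1 elsewhere.

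Gm16573, inside Parp4, was listed at 20.02 FPKM in liver and at 0 in both others, while Parp4 stayed between 0.361 and 1.09 FPKM. Gm12781 was at 15.1 FPKM in liver and under 0.1 elsewhere, beside Kctd15 with 3.15 FPKM in brain and 2.84 in liver. Hectd2os was at 1.52 FPKM in brain and 14.2 in liver, with a failed estimate in testis.

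Members present in every tissue were rare, as counted above. The 5 with the highest minimum over the 3 libraries were Gt(ROSA)26Sor, 1810021B22Rik, 4933431E20Rik, Tug1 and Gm11837. 1810021B22Rik had 4.88 FPKM in brain, 8.28 in liver and 5.88 for testis, the most even of the 5, and overlaps the end of Panx2, a channel gene at 21.03 FPKM in brain and 0.413 in testis. 2810001G20Rik was at 14.3, 1.58 and 18.8 FPKM, low in liver.

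A list of 59 antisense genes with names known from the literature gave 33 matches in the tables, of which 23 were members. In brain 4 reached 1 FPKM, in liver 4, and in testis 8 (34.8%, beside 26.4% of all members). In at least 1 library 12 of the 23 reached that level (52.2%, beside 30.1% of all members), and 11 were under 1 in all. Tsix, the antisense partner of Xist in X inactivation, was at 0.0120 FPKM in brain, 0.00108 FPKM in liver and 0 FPKM in testis. Dlx6os1, which is made with Dlx6 in forebrain interneurons, had 2.11 FPKM in brain, 0 FPKM in liver and 2.88 FPKM in testis, and Dlx6 had 1.57, 0 and 5.05. Uchl1os, reported to raise translation of the neuronal ubiquitin hydrolase Uchl1, was at 0.0547 FPKM in brain, where Uchl1 was at 274.

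Hnf4aos was at 0.534 FPKM in liver and 0 elsewhere, beside 70.2 FPKM of the hepatocyte factor Hnf4a. Hoxb5os had 2.45 FPKM in testis and Hoxb3os 1.28 in liver. Vax2os had 1.25 FPKM in testis, where Vax2 had 1.05. Wt1os was at 1.94 in testis with a lower bound of 0. Hoxd3os1 was listed at 34.0 FPKM in testis, but that estimate failed and exceeds its own upper bound of 33.7, and the values of Zeb2os and Nespas in all libraries and of Hoxaas3 in liver and testis were likewise failed or low-data estimates. Emx2os had 0.423 FPKM in brain and Tbx3os1 0.880, and Dlx4os, Evx1os, Igf2os, Mecomos, Nkx2-2os and Pax6os1 stayed under 0.3 in every library.

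Levels within a pair are on the same per-length scale and can be set side by side. Among the 306 testis-detected members with a partner, 219 partners were detected too and 184 members (60.1%) lay above their partner. In brain 60 members with a partner were detected, 46 of them with a detected partner, and 21 (35.0%) lay above it. In liver the counts were 35, 19 and 24 (68.6%). These shares are over members chosen for being detected: the median log2 ratio of member to partner was -1.20 in brain, 0.86 in liver and 0.61 in testis for them, and -2.08, -0.65 and -0.90 over all 1222 pairs. On log2(FPKM + 1) the member exceeded its partner at least 4-fold in 78 testis pairs, 7 brain pairs and 7 liver pairs, and the partner exceeded a detected member as much in 61, 20 and 3.

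In each library, a detected member had a detected partner more often than an undetected one. In testis 71.6% of partners were at 1 FPKM or more where the member was detected, and 57.8% where it was not. The shares were 76.7% and 70.7% in brain and 54.3% and 44.9% in liver. Exact 95% intervals were apart in testis and overlapped in brain and liver, where only 60 and 35 members with a partner were detected. They take pairs as independent although some members share a partner, and they are no test. Over all coding genes detection was 58.0%, 58.5% and 43.9%, so partners of undetected members were near the class average in testis and liver and above it in brain.

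Across tissues, most overlapping coding genes were not called the same way as their antisense gene. Of 171 members with a partner called higher in testis than in brain, the partner was also higher in 36 (21.1%), lower in 32 (18.7%) and called neither way in 103. Where the member was called neither way, 12.2% of 1045 partners were higher and 16.7% lower, and over all coding genes 14.2% and 10.4%. Against liver, 61 of 186 partners (32.8%) were higher with their member and 14 (7.53%) lower. There 19.1% and 6.80% of the partners of uncalled members, and 20.2% and 5.96% of all coding genes, were called higher and lower. Of 11 pairs whose member was higher in brain than in liver, 4 partners were higher in brain and 1 lower. There 23.8% and 4.24% of the partners of uncalled members, and 13.7% and 4.56% of all coding genes, were called higher and lower. For testis against brain the balance of pairs called the same way and in opposite directions depended on the scaling: 40 and 32 as deposited, 30 and 41 under the coding sum, 36 and 28 under the median ratio, 94 and 3 under the sum of all features. Spearman's rho of the 2 differences across pairs was 0.02 for testis against brain (284 pairs), 0.12 for testis against liver (256 pairs) and 0.22 for brain against liver (64 pairs), across genes of the same libraries, and is given as a description.

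**Figure D4:**
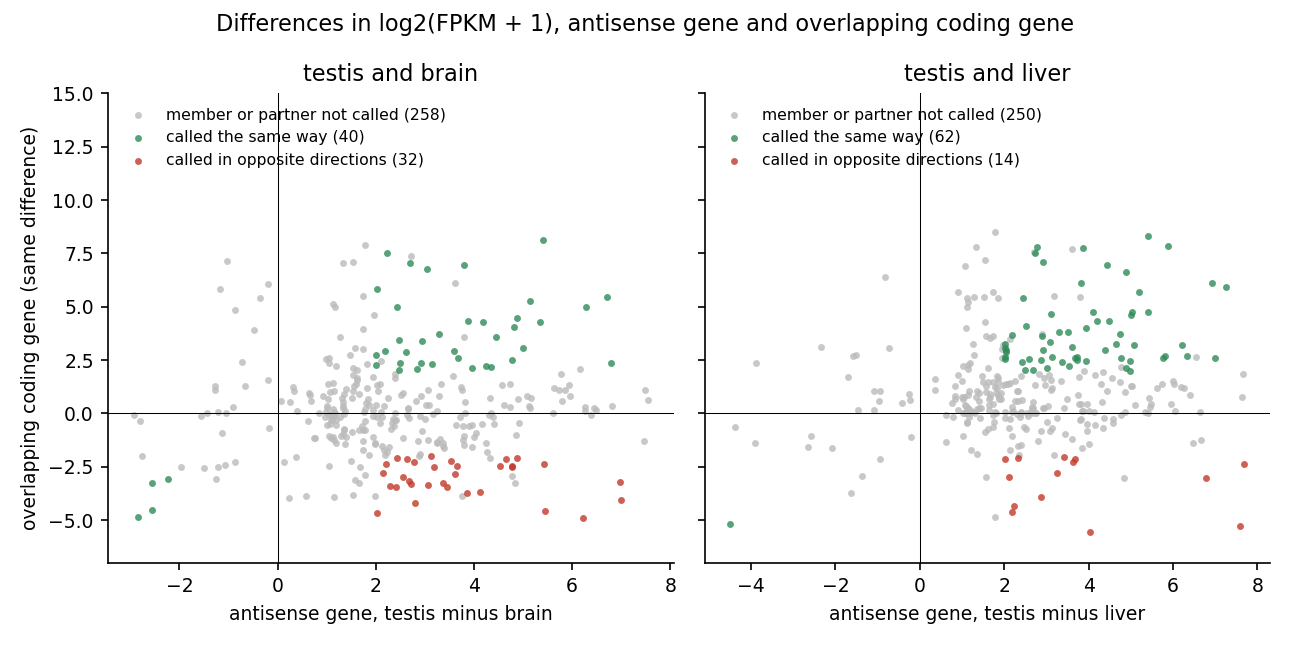
Difference in log2(FPKM + 1) between testis and brain (left) or liver (right), for the antisense gene (horizontal) and its overlapping coding gene (vertical). Green points are pairs called in the same direction and red points pairs called in opposite directions (32 on the left, 14 on the right). On the left, 40 pairs are called the same way as deposited, but scaling to the sum of all features gives 94 the same way and 3 opposite.

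In the 32 pairs called in opposite directions between testis and brain, the member lay inside its partner in 24, and 18 shared no exonic base. Among all 171 members with a partner called higher in testis than in brain, these counts were 109 and 68. In the 14 pairs opposed between testis and liver they were 5 and 3. For the 32 pairs between testis and brain, the partners were also long. Their partners had a median span of 244573 bp, against 62662.5 bp over all partners and 17631 bp over all coding genes. In the 14 pairs opposed between testis and liver that median was 35721 bp. For members higher in testis than in brain, partners called higher had a median of 36229 bp and those called neither way 56018 bp. The span of partners lower in testis beside uncalled members was not measured, so length cannot be tied to opposite calls. Of the pairs opposed between testis and brain, 4930589P08Rik was at 0.135 FPKM in brain and 83.5 in testis. It lies inside Camta1, a calmodulin-binding transcription activator at 54.2 FPKM in brain and 0.878 in testis. The testis estimate of Camta1 failed. 4921534H16Rik was listed at 0 in brain and at 16.5 FPKM in testis, inside Clstn2, a synaptic calsyntenin with 13.0 and 0.106 FPKM.

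Gm7568 was at 0 and 42.6 FPKM inside Stau2, an RNA-transport protein of dendrites with 52.0 FPKM in brain and 1.20 in testis. Nell1os was at 0 and 13.5 FPKM inside Nell1, with 13.4 and 0.0734.

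Against liver, 14 pairs were opposed. Among them, 1700045H11Rik (mm9 chr4:150202334-150229058, - strand) starts 124 bp from Errfi1, a feedback inhibitor of the EGF receptor, and carries a CRE match. It was listed at 0 in brain and liver and at 15.5 FPKM in testis, whereas Errfi1 was at 6.01, 175 and 2.75. Gm15743 had 8.58 FPKM in testis inside Bdh1, a ketone-body enzyme with 32.2 FPKM in liver and 3.78 in testis. Gm16277 had 6.31 in testis against 25.3 FPKM of Gfra1 in liver. In the single pair opposed between brain and liver, AW495222 was at 3.12 FPKM in brain and 0 in liver, inside Dmgdh, a mitochondrial enzyme of choline breakdown at 0.107 and 113 FPKM.

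Pairs called the same way were also found, and 3 examples given here were chosen after their values were seen. 1700031F10Rik was listed at 0 in brain and liver and at 41.5 FPKM in testis, inside Dnajb8, a testis chaperone with 0.135, 0.00786 and 320 FPKM. Lyzl4os had 35.6 FPKM in testis, with 50.9 of the sperm lysozyme-like gene Lyzl4. Gm11651 had 28.5 FPKM in testis beside 111 of Ace, the angiotensin-converting enzyme, which has a germ-cell form started from an internal promoter. By the M21 models these 3 pairs share 525, 0 and 295 exonic bases in that order. Exchange of reads within them was not tested.

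Divergent neighbours were described in the same way. Of 87 members higher in testis than in brain with a divergent neighbour, the neighbour was higher in 36 (41.4%) and lower in 2. Where such a member was called neither way, 14.7% of neighbours were higher and 13.9% lower. Against liver, 55 of 99 neighbours (55.6%) were higher with the member and 3 lower, and 22.8% were higher where it was called neither way. The neighbour was detected in testis in 91.6% of cases with the member detected and in 55.1% with it under 1 FPKM. Few members were lower in testis than in brain: 2 of 4 divergent neighbours and 4 of 6 overlapping partners were then lower too. The overlapping and divergent sets share members, and for many members the divergent neighbour is the overlapping partner itself. Such pairs count in both sets, which are therefore not separate classes, and the difference between them was not tested. Neighbours without listed values were left out, so the neighbour counts cover slightly fewer than the 479 members.

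**Figure D5:**
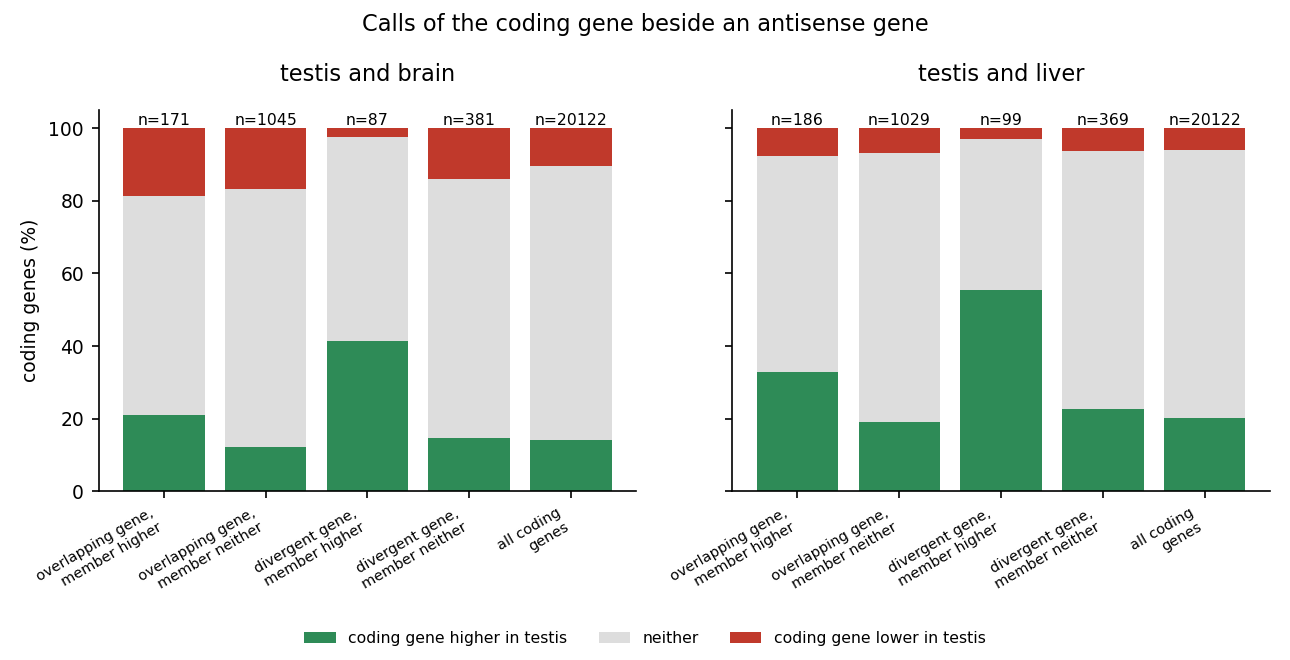
Percent of coding genes called higher (green), lower (red) or neither in testis against brain (left) and liver (right), by whether the coding gene overlaps or is divergent from an antisense gene, and by the call of that gene, beside all coding genes. The green share is highest for divergent neighbours of members higher in testis (41.4% and 55.6%). Many pairs of an antisense and a coding gene stand in both the overlapping and the divergent bars.

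Because overlapping genes can exchange reads when strand is lost, members whose partner was at 50 FPKM or more were checked. In brain 68 of 72 such members were under 1 FPKM, in liver 46 of 46 and in testis 86 of 127. The median member level was 0.0285, 0.0101 and 0.187 FPKM. As single cases, B430119L08Rik was listed at 0 in liver inside Serpina1c, an alpha-1-antitrypsin gene at 7045 FPKM, and Gm12999 was at 0.226 in brain inside Atpif1 at 1186. Over all members, 94.7%, 96.9% and 73.6% were under 1 FPKM, and the corresponding shares opposite a highly expressed gene were 94.4%, 100% and 67.7%. Exchange of reads between strands was not tested. The strand setting used in counting is not given in the sources used here.

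Antisense genes of chromosome X were rarely detected in testis. There 1 of 37 reached 1 FPKM (2.70%, exact 95% interval 0.0684 to 14.2%), which was Flicr with 1.52 FPKM, and 378 of 1400 autosomal members did (27%). None of the 37 reached 1 FPKM in brain or liver (exact 95% upper limit 9.49% in each), where 5.43% and 3.21% of autosomal members did. Among lincRNA genes of chromosome X 22.4% were detected in testis, and coding genes reached 55.2% on X and 58.1% on autosomes. After Flicr, Rbm3os was the highest on X in testis with 0.914 FPKM.

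Neuronal, hepatocyte and spermatid markers were highest in the tissue of their label. Summed FPKM of 4 neuronal markers was 1603 in brain and under 0.35 in the others, of 4 hepatocyte markers 49875 in liver, 647 in brain and 29.1 in testis, and of 4 spermatid markers 33768 in testis. The highest hepatocyte marker supplied 641 of the 647 FPKM listed for brain. The spermatid markers summed to 27.3 FPKM in brain and 0.244 in liver, a testis-to-brain ratio of 1238. Of the 28 members at 50 FPKM or more in testis, 24 were above 0 in brain with a median testis-to-brain ratio of 620 (range 27.7 to 3203), and 23 were listed at 0 in liver. The part of this spermatid signal in the low brain values of testis-led members was not tested. The sum of 4 Sertoli markers did not set testis (1191 FPKM) apart from liver (1160), and brain reached 709. The highest marker alone supplied 703 of the brain sum and 1159 of the liver sum, but 750 of the testis sum. The Sertoli sums outside testis thus rest almost wholly on a single marker and do not describe the set. Leydig markers summed to 401 in testis.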

How the data were processed

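RNA from brain, liver and testis was measured by strand-specific sequencing, 1 library per tissue. Per the file headers, the authors deposited FPKM per gene with 2 bounds and the status of each estimate. TopHat 1.4.0, Bowtie 0.12.5, Cufflinks 2.0.0 and mm9 are named in the submitters' processing notes. Neither the annotation nor the strand setting is given in the sources used here. The headers name no level for the bounds, which were taken as 95% bounds.

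From these tables, 36809 genes present in all 3 were used as deposited, without scaling. Biotypes, strands, exons and starts came from GENCODE M21 (GRCm38) by identifier, and loci from the tables (mm9, 1 added to the start, after which 37 of 38 mitochondrial genes matched the reference). No coordinates were moved between builds. The partner was the coding gene sharing most bases with the member, at least 1. Calls needed 4-fold on log2(FPKM + 1) and intervals apart. FPKM marked as failed was kept at its listed value. No fold is given against an exact 0, which may stand for an estimate that failed. FPKM carries no counts, and its precision was read from the bounds.

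The members and lists were chosen with earlier results of these data known. Named members were the 10 highest per tissue, the 5 largest called differences per pair of tissues and direction, the 10 highest restricted ones per tissue, the 5 detected in all libraries with the highest minimum, the 5 pairs per tissue in which the member most exceeded its partner, the 5 strongest opposite pairs per pair of tissues, and a list of studied antisense genes; the text gives a part of these, and 1 result is not reported here. Pseudocounts, scalings, fold and detection minimums, status and partner overlap were varied. The calling steps were tested on simulated data. Python 3.11.15 with pandas 2.3.3, numpy 2.4.6 and scipy 1.17.1 was used.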

Additional observations from a re-analysis of the deposited data

How the results depend on the processing

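The counts below are given in the order testis against brain, testis against liver and brain against liver unless said otherwise. They stand against 214, 230 and 15 members higher and 8, 8 and 9 lower, 40, 62 and 6 pairs called the same way and 32, 14 and 1 in opposite directions. Of the alternative values, 122 stayed within 1.5 times the reported count and 85 did not. In each setting more members were higher than lower in testis.

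A pseudocount of 0.1 gave 393, 429 and 93 members higher and 43, 34 and 38 lower, with 90, 158 and 35 pairs the same way, 76, 39 and 11 opposite, and 12 brain and 16 liver pairs with the member 4-fold above. With 0.01 there were 460, 541 and 206 higher and 95, 53 and 57 lower, 133, 233 and 103 pairs the same way and 88, 51 and 17 opposite, and again 12 and 16 pairs with the member above. At 2-fold, 324 members were higher in testis relative to brain and 49 in brain relative to liver, and 19, 17 and 20 were lower. The pairs came to 86, 134 and 20 the same way and 75, 35 and 5 opposite. At 8-fold there were 133, 142 and 2 higher and 0, 5 and 4 lower, with 14, 26 and 1 pairs the same way and 9, 3 and 0 opposite.

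Scaling to the sum of all features gave 0 members higher in brain than in liver and 25 lower, 0 and 15 lower in testis, 94 same and 3 opposite pairs against brain and 29 opposite pairs against liver. It also gave 22 members detected in brain and 88 in liver, and 0 restricted to brain and 11 to liver. Scaling to the coding sum gave 27 members higher in brain than in liver, 9 opposite pairs for testis and liver, 11 same pairs for brain and liver, and 9 members restricted to brain. Scaling to the median ratio gave 0 opposite pairs for brain and liver and 8 members restricted to liver. With estimates marked OK only, there were 0 such pairs and 3 brain pairs with the member above. Without the intervals there were 2 opposite pairs for brain and liver. A partner covering 50% of the member left 25 same pairs against brain, 7 opposite pairs against liver, 1 same pair for brain and liver and 4 liver pairs with the member above.

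Detection at 0.1 FPKM gave 333 members in brain, 157 in liver and 667 in testis, at 0.5 FPKM 128 in brain and 75 in liver, and at 5 FPKM 15, 10 and 201. Restriction at 1 and 0.1 FPKM gave 11 members in brain and 10 in liver. A lower limit or a smaller fold leaves more members, and a higher one fewer, by construction. The sum of all features in brain was 1.41e+07 FPKM, beside 345253 FPKM over coding genes. Scaling to it multiplied brain values by 0.239, liver values by 2.53 and testis values by 1.65. For the other settings the cause was not tested. The main limits are that there is 1 library per tissue, that the deposited values hold no counts, and that most members are near 0, where the pseudocount sets the call. No paired analysis was possible because each tissue has a single library and no result comes from a test.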

Other observations

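Coding genes under antisense loci were grouped by gene symbol. Of 30 members over developmental transcription factor genes (Hox, Dlx, Pax and related symbols) 9 were detected in testis (30%), and of 28 over germ cell and flagellum genes 7 (25%). The counts were 5 of 23 (21.7%) over neuronal and synaptic genes, 4 of 12 (33.3%) over zinc finger genes and 1 of 9 (11.1%) over liver metabolism genes. Members without an overlapping coding gene reached 73 of 215 (34.0%). The groups are small, and no test of these shares was run.

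By arrangement, 15 of 36 members that span their partner (41.7%) were detected in testis, 57 of 186 tail-to-tail members (30.6%), 62 of 239 head-to-head members (25.9%) and 170 of 737 inside their partner (23.1%). In brain the members inside a partner gave the lowest share of these 4 arrangements, 16 of 737 (2.17%), against 21 of 239 head to head (8.79%). For the 21 head-to-head members called higher in testis relative to brain, the partner was higher in 9 and lower in 0. Over all coding genes 14.2% were higher and 10.4% lower. Relative to liver, the partner was higher in 12 and lower in 3 of 27 such members, beside 20.2% and 5.96% of all coding genes. These counts are small and were not tested.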
